A study of Mus musculus with 4 samples.

Results

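The Hedgehog pathway genes Dhh, Ptch1, Smo, Sufu, Gli1, Gli2, Gli3 and Hhip were described in testes lacking RFX2, a transcription factor of the RFX family, which binds the X-box of many ciliary genes. These 8 genes were chosen by symbol from the 22311 genes measured, and all 8 were found. The rule used none of their values, but earlier results of these data were known when it was set. Hedgehog signalling passes through the primary cilium in mammals. Without ligand the receptor PTCH1 keeps the transducer SMO inactive, and SUFU holds the GLI transcription factors back. When a ligand binds PTCH1, SMO acts in the cilium and the GLI factors turn on target genes, among them Ptch1, Gli1 and Hhip themselves. In the testis the ligand is Desert hedgehog, which Sertoli cells secrete and which Leydig and peritubular cells outside the tubules answer.

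RNA was sequenced from whole testes of 24-day-old male mice, with 2 Rfx2-/- samples (mutant 1 and 2) and 2 control samples (control 1 and 2). The mutant allele was a conventional knockout in every cell, made from a single targeted embryonic stem cell clone, in which a neomycin-resistance cassette took the place of exons 6 and 7. The labels call the controls wild type and the strain DBA, whereas the methods of the study describe heterozygous controls on a mixed 129/s6 and C57BL/6 background. The labels call the samples biological replicates without naming the animals, so that p-values measure the spread between these 4 samples only.

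Each sample had a value in FPKM, the fragments per kilobase of transcript scaled to the mapped fragments of the sample, for every gene, with a lower and an upper confidence bound, whose level is not given in the sources used here. The bounds implied 17165000 to 20350000 fragments on genes per sample. Rfx2 itself lay at 36.7 and 39.8 FPKM in mutants 1 and 2 and at 123 and 89.4 FPKM in controls 1 and 2, a difference of -1.43 on the log2(FPKM + 1) scale (SE 0.19, limma adjusted p = 0.00617). Under 4 of 16 alternatives the difference kept its direction and missed the threshold, with an adjusted p of 0.0504 to 0.073. These values count fragments over the whole gene and do not show the removed exons alone. Mutant 1 stood apart in the markers of elongating spermatids, which summed to 888 FPKM there against 5423 in mutant 2, 7164 in control 1 and 4773 in control 2.

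The ligand Dhh was the second most abundant of the 8 genes and had close mean levels in both genotypes. It measured 10.6 FPKM in mutant 1, 8.58 in mutant 2, 7.97 in control 1 and 11.2 in control 2. The highest and the lowest value were thus both controls, and both mutants lay between them. The means were 9.61 ± 1.45 FPKM in mutants and 9.59 ± 2.29 in controls (SD, n = 2 each). The difference was 0.01 on the log2(FPKM + 1) scale (SE 0.23, 95% interval -0.52 to 0.55, limma adjusted p = 0.9999). As a ratio of FPKM + 1, mutant to control, this interval ran from 0.696 to 1.46. Between 478 and 740.0 implied fragments stood behind each value, and the confidence bounds of the controls did not overlap.

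Dhh lies on the minus strand of chromosome 15 (chr15:98723462-98728971 in NCBIM37, the mm9 build used for the deposited values) and has 3 exons in the annotation. Its promoter and that of Sufu are shown because these genes had the highest levels of the 8 and because their promoters differ in the elements they hold. Each line gives the 250 bases before the RefSeq start, 5′ to 3′ on the strand of the gene, at chr15:98898541-98898790 (minus strand) for Dhh and chr19:46396646-46396895 (plus strand) for Sufu in GRCm38.p6. Capitals mark the GC box GGGCGG on either strand and the CCAAT box.
Dhh: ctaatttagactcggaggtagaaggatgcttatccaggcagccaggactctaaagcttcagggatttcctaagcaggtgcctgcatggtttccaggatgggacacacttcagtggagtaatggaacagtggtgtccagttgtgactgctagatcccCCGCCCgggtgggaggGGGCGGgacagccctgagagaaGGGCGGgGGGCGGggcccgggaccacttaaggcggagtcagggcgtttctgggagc
Sufu: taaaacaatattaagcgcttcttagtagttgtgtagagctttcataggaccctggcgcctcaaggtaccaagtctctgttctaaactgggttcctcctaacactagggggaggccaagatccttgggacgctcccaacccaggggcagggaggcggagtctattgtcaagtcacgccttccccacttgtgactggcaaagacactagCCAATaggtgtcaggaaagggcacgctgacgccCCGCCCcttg
The Dhh promoter held 4 GC boxes, whose first bases lay 94, 78, 56 and 49 bases before the start, and no CCAAT box. The Sufu promoter held a CCAAT box 43 bases and a GC box 10 bases before the start.

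The other mammalian ligands were close to 0. Shh, the ligand of limb and neural tube, ranged from 0.0133 to 0.0539 FPKM, and Ihh, that of growing cartilage, from 0.0465 to 0.173. Shh rested on 1 to 4 implied fragments in a sample and Ihh on 3 to 10. The lower bound of Shh was 0 in all 4 samples and that of Ihh in both controls. Dhh exceeded Ihh 79.9 and 49.5 times in mutants 1 and 2 and 172 and 192 times in controls 1 and 2. Both ligands were listed higher in both mutants than in either control. The genotypes did not overlap, in either direction, for 32.6% of the genes above 0 in all samples. Neither ligand passed the filter of 1 FPKM in at least 2 samples, so that neither was tested.

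The receptor Ptch1 and the transducer Smo were expressed at nearly equal levels, and neither was called different between genotypes. Ptch1 measured 2.95 FPKM in mutant 1, 2.01 in mutant 2, 2.24 in control 1 and 2.92 in control 2. The mutants here held both the highest and the lowest value, and the difference was -0.05 (SE 0.24, 95% interval -0.59 to 0.50, limma adjusted p = 0.9999). Smo measured 3.09 FPKM in mutant 1, 1.73 in mutant 2, 2.11 in control 1 and 3.25 in control 2. Mutant 1 and control 2 were again the higher samples, and the difference was -0.12 (SE 0.28, 95% interval -0.76 to 0.52, limma adjusted p = 0.9999). Ptch1 lies at chr13:63610261-63674474 on the minus strand and Smo at chr6:29685694-29711365 on the plus strand.

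Within a sample the ratio of Ptch1 to Smo stayed between 0.898 and 1.16, and their confidence bounds overlapped in all 4 samples.

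Sufu, the cytoplasmic inhibitor of the GLI factors, was the most abundant member and had the largest difference of the 5 tested. It measured 18.0 FPKM in mutant 1, 31.9 in mutant 2, 38.4 in control 1 and 31.2 in control 2. Mutant 1 was thus the only low sample, while mutant 2 lay between the controls. The means were 25.0 ± 9.83 FPKM in mutants and 34.8 ± 5.06 in controls (SD, n = 2 each), and the difference of -0.51 was not past the threshold (SE 0.27, 95% interval -1.12 to 0.11, unadjusted p = 0.0921, limma adjusted p = 0.796). The value turned on mutant 1. Without that sample the difference was -0.11, and without mutant 2 it was -0.90, each with 1 mutant sample left. Sufu lies at chr19:46471386-46563294 on the plus strand.

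Hhip encodes a membrane protein that binds Hedgehog ligands and keeps them from the receptor. It was the lowest of the 8 genes, at 0.281 FPKM in mutant 1, 0.197 in mutant 2, 0.160 in control 1 and 0.384 in control 2. The controls held both the highest and the lowest value, 2.39 times apart. Only 41.0 to 104 implied fragments stood behind these values, and Hhip did not pass the filter of 1 FPKM in at least 2 samples. Hhip lies at chr8:82490014-82581905 on the minus strand.

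Of the transcription factors, Gli1, an activator and a target of the pathway, had the highest level. It measured 1.31 FPKM in mutant 1, 1.18 in mutant 2, 0.993 in control 1 and 1.26 in control 2. The values lay close together, with the lowest in a control, and the difference was 0.08 (SE 0.19, 95% interval -0.36 to 0.53, limma adjusted p = 0.9999). Relative to Ptch1, the other target used as a readout of the pathway, Gli1 stood at 0.445 in mutant 1, 0.587 in mutant 2, 0.443 in control 1 and 0.431 in control 2. The ratio was highest in mutant 2, and the other samples were nearly equal.

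Gli2, the main activator, measured 0.500 FPKM in mutant 1, 0.305 in mutant 2, 0.363 in control 1 and 0.493 in control 2. Gli3, the main repressor, measured 0.549 FPKM in mutant 1, 0.393 in mutant 2, 0.317 in control 1 and 0.549 in control 2. For both genes mutant 1 and control 2 were nearly equal and above the other samples. Neither passed the filter, and both were measured by few fragments, between 51.0 and 98.0 for Gli2 and between 75.0 and 138 for Gli3. With a limma-voom fit on the implied fragments, the log2 difference was -0.09 for Gli2 (95% interval -1.02 to 0.85), 0.18 for Gli3 (95% interval -0.75 to 1.10) and -0.05 for Hhip (95% interval -1.20 to 1.09), with an adjusted p of 0.999 for each. A difference anywhere in these intervals cannot be told from the estimate with 2 samples per genotype. Gli1 lies at chr10:126766945-126778645 and Gli2 at chr1:120730709-120950196, both on the minus strand, and Gli3 at chr13:15555068-15821859 on the plus strand.

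**Figure D1:**
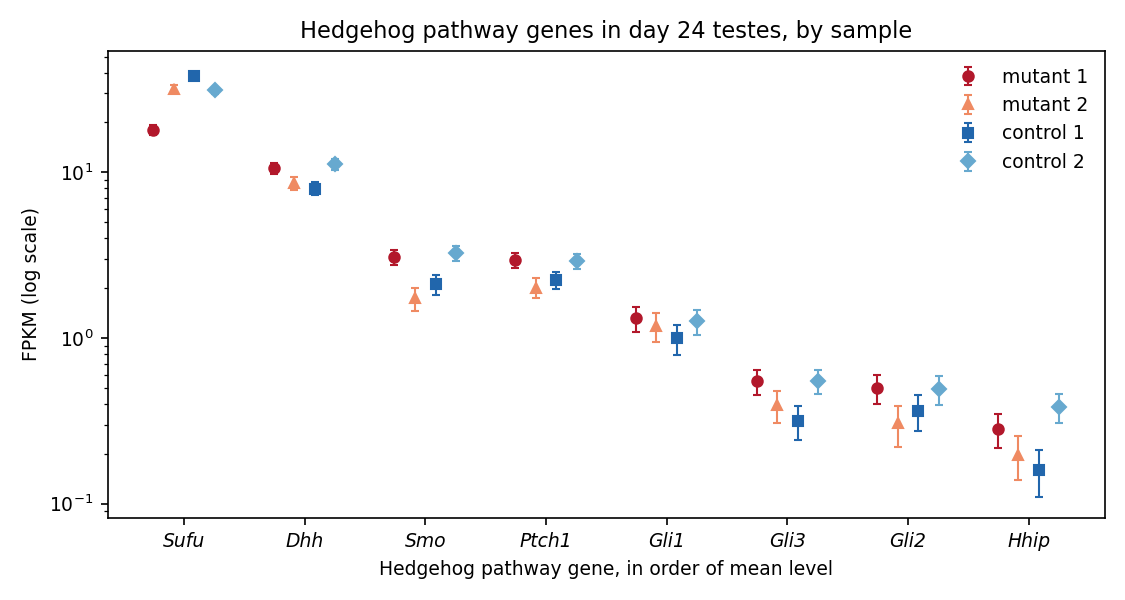
FPKM of the 8 Hedgehog pathway genes in each of the 4 samples, on a log axis. Points are the deposited values, bars the deposited confidence bounds, and genes stand in the order of their mean over the samples. Mutant and control points overlap for every gene, and Sufu in mutant 1 (18.0 FPKM) lies below the other samples.

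The order of the levels was the same in every sample apart from Smo with Ptch1 and Gli3 with Gli2. Over the 4 samples the means were 29.9 FPKM for Sufu, 9.60 for Dhh, 2.54 for Smo, 2.53 for Ptch1, 1.19 for Gli1, 0.452 for Gli3, 0.415 for Gli2 and 0.256 for Hhip. Smo and Ptch1 changed places between samples, with Smo the higher in 2 of 4. Gli3 exceeded Gli2 in 3 of 4 samples, and their confidence bounds overlapped in each. Gli2 exceeded Hhip in 4 of 4 samples although the ranges of the genes overlapped, and each remaining pair of neighbours had ranges that did not overlap. Among genes with an FPKM above 0, Sufu stood at the 85.3rd percentile of mean level, Dhh at the 66.9th, Gli1 at the 36.2nd and Hhip at the 21.5th.

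None of the 5 members that passed the filter was called between genotypes by limma at an adjusted p under 0.05, against 2.83% of all 12985 genes tested (2.52% lower and 0.308% higher in mutants). None had an unadjusted p under 0.05 either, against 8.69% of all genes tested, and limma-voom on implied fragments also called 0. The values of mutants and controls overlapped in all 8 members, while the genotypes did not overlap for 32.6% of the genes above 0 in all samples. The median difference of the 5 members was -0.05 against 0.03 for all genes tested. With 2 samples per genotype, a difference anywhere in the interval of a member, which for Dhh ran from -0.52 to 0.55 on the log2 scale, cannot be told from its estimate. In RNA of whole testis, a change in the number of cells that express a gene and a change in RNA per cell cannot be told apart.

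The samples of the same genotype differed from each other in an order that most members shared, which was noticed in these values. For 7 of the 8 genes, all but Sufu, mutant 1 was above mutant 2 and control 2 was above control 1. Among the genes above 0 in all samples, 43.5% had that order, 64.7% were higher in mutant 1 than in mutant 2, and 59.2% were higher in control 2 than in control 1. Among those 7 members, mutant 1 exceeded mutant 2 by 1.11 times (Gli1) to 1.78 times (Smo), and control 2 exceeded control 1 by 1.27 times (Gli1) to 2.39 times (Hhip). The confidence bounds of the mutants did not overlap for 5 of the 8 members, and those of the controls for 6 of the 8. After median-ratio scaling of the samples the same 7 members had this order, against 29.1% of genes (48.8% for the mutants and 48.1% for the controls taken alone), although the mutants then differed by only 1.01 times for Gli1. The members are not independent of each other, since the same 4 libraries stand behind each.

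Sufu had the opposite order. Mutant 2 was 1.77 times mutant 1, and control 1 was 1.23 times control 2. This order was found for 19.6% of the genes above 0 in all samples.

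Marker lists of the cell types in the testis were set beside the members in the same samples. Of the Sertoli cell markers, 7 of the 8 listed had an entry, the most abundant being Clu. All 7 showed the order of the 7 members, with sums of 716 to 821 FPKM in mutants and 543 to 761 in controls. Dhh as a share of that sum was 1.30% in mutant 1, 1.20% in mutant 2, 1.47% in control 1 and 1.47% in control 2. The share varied 1.23 times between samples, and Dhh itself 1.41 times. Dhh as a share of the summed spermatocyte markers varied about as little, 1.24 times (1.79% to 2.22%). The spermatogonia markers showed the order in 4 of 6 genes and the spermatocyte markers in 4 of 5.

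Few markers of the cells that answer to DHH had the order shared by the members other than Sufu. In Cyp11a1, Cyp17a1, Insl3 and Lhcgr, of the Leydig list, mutant 1 was above mutant 2 and control 1 above control 2. Star and Hsd3b1, of the same list, had other orders. In Myh11, Cnn1 and Tagln, of the peritubular list, mutant 2 was above mutant 1 and control 2 above control 1. Acta2, of the same list, had the order of the members other than Sufu, and Des had the order of Cyp11a1. Peritubular myoid cell markers, led by Acta2, summed to 84.7 and 86.9 FPKM in mutants 1 and 2 and to 77.0 and 109 in controls 1 and 2, and 1 of 5 genes had the order of the members. Leydig cell markers, led by Insl3, summed to 418 and 235 FPKM in mutants and to 369 and 135 in controls, and 0 of 6 had it. The Leydig sum was carried by Insl3, at 326 and 157 FPKM in mutants 1 and 2 and 266 and 51.5 in controls 1 and 2. Without Insl3 the Leydig sums were 92.5 and 77.3 FPKM in mutants and 103 and 83.4 in controls, and Ptch1 as a share of them varied 1.60 times between samples, against 3.56 times with it. Ptch1 as a share of the peritubular sum ranged from 2.31% to 3.49%. Endothelial markers summed to 4.61 to 4.65 FPKM in mutants and 4.63 to 5.97 in controls, and macrophage markers to 10.3 to 14.1 and 11.8 to 13.3.

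Spermatid markers had the order of Sufu within each genotype. Across the 4 samples the round spermatid sum was highest in mutant 2, whereas Sufu and the elongating spermatid sum were highest in control 1. The 5 round spermatid markers, led by Tssk1, had the order of Sufu in 5 of 5 genes, with sums of 292 and 551 FPKM in mutants 1 and 2 and 503 and 431 in controls 1 and 2. The 6 elongating spermatid markers, led by Tnp2, had it in 6 of 6. Sufu as a share of the round spermatid sum was 6.18% in mutant 1, 5.79% in mutant 2, 7.63% in control 1 and 7.25% in control 2. This share varied 1.32 times between samples, against 2.13 times for Sufu itself. As a share of the elongating spermatid sum, Sufu ranged from 0.536% to 2.03%, which varied 3.79 times, more than Sufu itself. No marker in the 9 lists was at 0 in all samples. Of the markers that passed the filter none was called between genotypes, against 2.83% of all genes tested. The median difference was -1.47 for elongating spermatid markers, whose sum was lowest in mutant 1, and -0.23 for round spermatid markers. In the other lists it ran from -0.10 (peritubular myoid) to 0.18 (Sertoli). The part of the cell makeup of the samples in the values of the members was not tested.

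**Figure D2:**
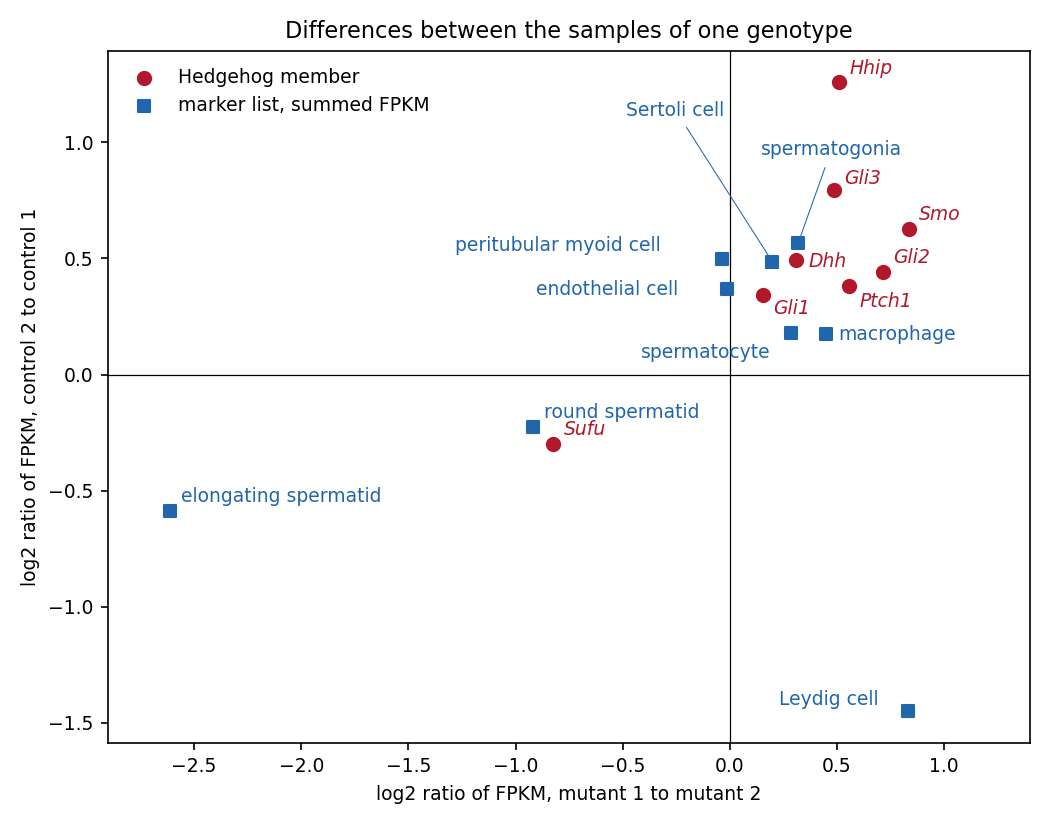
Differences between samples of the same genotype, as the log2 ratio of FPKM in mutant 1 to mutant 2 (horizontal) and in control 2 to control 1 (vertical). Circles are the 8 Hedgehog pathway genes and squares the summed FPKM of each marker list. The 7 members other than Sufu lie at the upper right with the Sertoli cell, spermatogonia, spermatocyte and macrophage sums, and Sufu lies beside the round spermatid sum in the lower left.

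The genes with the profile most like that of each tested member were found by the distance between log2(FPKM + 1) values centred on their mean over the 4 samples. They were AI646023 for Dhh (distance 0.0109), 8430410K20Rik for Ptch1 (0.011), Smagp for Smo (0.044), Aldoart2 for Sufu (0.048) and Tdrd9 for Gli1 (0.00887). Many other genes were near as well. Within a distance of 0.2 lay 2478 genes for Dhh, 1973 for Ptch1, 275 for Smo, 53 for Sufu and 3305 for Gli1. Aldoart2, the nearest to Sufu, measured 57.9 FPKM in mutant 1, 99.1 in mutant 2, 124 in control 1 and 99.5 in control 2. Its low value in mutant 1 follows from its choice by these same 4 samples and is no separate observation.

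The wider pathway was covered by 5 lists with 64 further genes, of which 52 passed the filter. None of the 52 was called by limma. At an unadjusted p under 0.05, 2 were lower in mutants (Dyrk2 and B9d1) and 4 were higher (Hhat, Scube3, Rpgrip1l and Tctn1), 6 in all, where 8.69% of all genes tested had such a p. The median difference over the 52 genes was 0.02.

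Of the genes for ligands and their release, 3 of 8 passed the filter, and none was called. All 3 had positive differences, with a median of 0.58. Of all 12985 genes tested, 7443 had positive differences, with a median of 0.03 over all. Hhat, the acyltransferase that palmitoylates Hedgehog proteins, measured 1.78 and 2.50 FPKM in mutants 1 and 2 and 1.11 and 1.07 in controls 1 and 2. Both mutants lay above both controls, and the difference was 0.58 (SE 0.21, unadjusted p = 0.0257, limma adjusted p = 0.38). Scube3, of a family of secreted proteins that aid ligand release, measured 2.09 and 4.32 FPKM in mutants and 1.47 and 1.54 in controls, a difference of 0.69 (SE 0.28, unadjusted p = 0.0402, limma adjusted p = 0.505). Without mutant 1 that difference was 1.09, and without mutant 2 it was 0.30, each with 1 mutant sample left. Scube2 measured 3.93 and 7.06 FPKM in mutants and 3.51 and 4.08 in controls, where the genotypes overlapped. Its difference was 0.40, and it was 0.75 without mutant 1 and 0.04 without mutant 2. Disp1, which encodes the transporter that releases the ligand, was listed at 0 in all 4 samples, and its relative Disp2 ranged from 0.0569 to 0.103 FPKM.

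Of the surface co-receptors and inhibitors, 5 of 6 passed the filter, with a median difference of -0.06. The co-receptors Cdon and Gas1 had differences of -0.16 (95% interval -0.64 to 0.32) and -0.08 (95% interval -0.58 to 0.43). All 19 cytoplasmic regulators passed, with a median of 0.07. Cul3, the scaffold of the ubiquitin ligase that acts on GLI proteins with SPOP, was the most abundant of them, between 122 and 131 FPKM, and differed by 0.03 (95% interval -0.34 to 0.41). Dyrk2, a kinase that phosphorylates GLI2, measured 5.30 and 7.21 FPKM in mutants and 11.1 and 8.83 in controls. Both mutants lay below both controls, and the difference was -0.60 (SE 0.23, unadjusted p = 0.0326, limma adjusted p = 0.441). Gsk3b, a kinase that phosphorylates GLI3 before its processing, differed by 0.33 (95% interval -0.17 to 0.84), or by 0.56 without mutant 1 and 0.11 without mutant 2.

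Of the ciliary genes with a role in the pathway, 20 of 22 passed the filter, with a median of -0.05. Tctn1, of the transition zone at the base of the cilium, came nearest to the threshold. It measured 23.9 and 25.2 FPKM in mutants 1 and 2 and 15.5 and 13.7 in controls 1 and 2, a difference of 0.71 (SE 0.17, unadjusted p = 0.00346, limma adjusted p = 0.0956). With a robust eBayes step the limma adjusted p was 0.0327. Rpgrip1l, of the same zone, measured 10.1 and 12.5 FPKM in mutants and 6.41 and 8.28 in controls, a difference of 0.56 (SE 0.22, limma adjusted p = 0.462). B9d1, the most abundant of the list and also of the transition zone, measured 80.0 and 81.5 FPKM in mutants and 116 and 102 in controls, a difference of -0.43 (SE 0.16, limma adjusted p = 0.428). Genes of the same zone thus had differences of opposite sign, and none passed the threshold.

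Of the other GLI target genes, 5 of 9 passed the filter, with a median of -0.01. Ccnd1, the cyclin of G1 phase, measured 3.76 and 3.36 FPKM in mutants and 2.47 and 4.63 in controls, a difference of 0.04 (95% interval -0.59 to 0.68). Nr2f2, a nuclear receptor of interstitial cells, differed by -0.19 (95% interval -0.74 to 0.36), and Sfrp1, a secreted WNT antagonist, by -0.22 (95% interval -0.82 to 0.37). In 6 of the 8 target genes above 0 in all samples, mutant 1 was above mutant 2 and control 2 above control 1. All members but Sufu had this order, whether targets of the pathway or not. So did 43.5% of all genes above 0 in all samples.

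**Figure D3:**
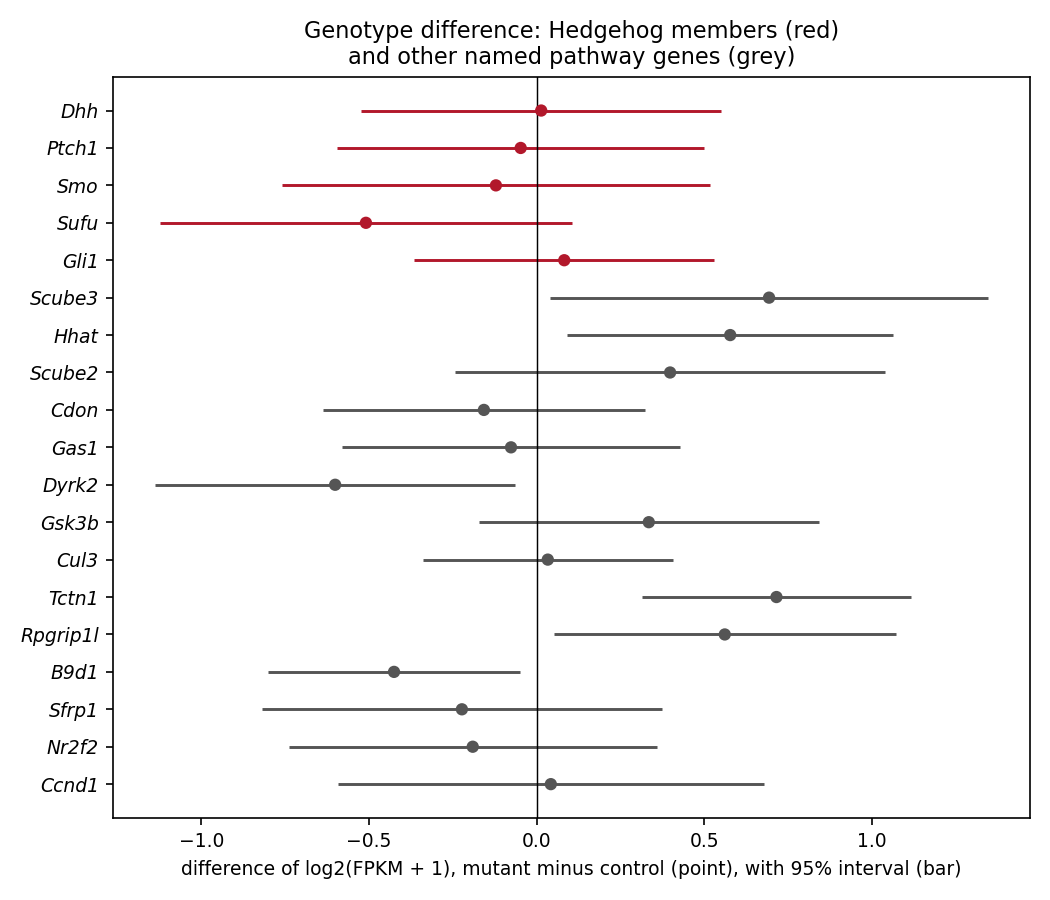
Difference between genotypes, mutant minus control, of log2(FPKM + 1) for the 5 Hedgehog members tested (red) and 14 further pathway genes (grey). Points are limma estimates and bars their 95% intervals. The bars of all 5 members cross 0, and those of Scube3, Hhat, Dyrk2, Tctn1, Rpgrip1l and B9d1 do not, before adjustment for the 12985 genes tested.

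A RefSeq promoter of GRCm38.p6, from 250 bases before to 50 after the start, was matched to 7 of the 8 members, all but Gli1. The X-box, the binding site of RFX factors, was found in 0 of the 7 on either strand, against 1.55% of all 32851 promoters. The GLI site GACCACCCA was found in 0 of the 7, against 0.277% of all promoters. With 1 mismatch allowed, both were still found in 0 of the 7, against 11.3% and 6.76% of promoters. These counts say only that the letters are not in these windows.

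The GC box GGGCGG was found in 6 of the 7 member promoters, all but that of Smo, against 35.7% of all promoters. CCAAT was found in the Sufu promoter alone, against 37.4% of all promoters. These last motifs were searched after the X-box and the GLI site. The GC content of the member promoters ran from 56.3% (Sufu) to 76.3% (Ptch1), above the median of 52.7% over all promoters in each of the 7. The GC box consists of G and C alone, and its share among promoters of like GC content was not computed.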

How the data were processed

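RNA of whole testes from 24-day-old mice was sequenced in 2 mutant and 2 control samples. The authors aligned reads to mm9 with TopHat2 2.0.6 (per the labels) and deposited the FPKM of each gene with the bounds of its confidence interval, made with Cufflinks per the study's methods. The FPKM values are scaled by the authors for transcript length and depth within a sample, and the file headers name no scaling between samples. The Cuffdiff comparison of the study needs the reads and was not repeated.

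Entries that share a symbol were summed, and each member had 1 entry. Genes with at least 1 FPKM in at least 2 of the 4 samples (12985 of 22311) were tested on log2(FPKM + 1) with limma 3.58.1 in R 4.3.3 (two-sided, with variances moderated along a trend on the mean level), and p-values were adjusted by Benjamini-Hochberg over all of them, with a threshold of 0.05. Log2 differences are mutant minus control and understate the change of low genes. The procedure was tested on data simulated with independent noise and with changes among the more abundant genes only. That test does not show how well a change in these members would be found. Implied fragments were the square of the FPKM over its SD, taking the distance to the upper bound as 2 SD, a level that the files do not state, and cover counting error only. Counts in limma-voom were these implied fragments, for genes with at least 10 in at least 2 samples.

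The members and gene lists were chosen with earlier results of these data known. Besides the members, the genes named in each pathway list were those called, the 2 largest differences among genes not called and the most abundant gene; in marker lists the most abundant gene and those called; and for each tested member the gene of nearest profile. The values of 1 gene that this rule names are not reported here. Other genes (Shh, Ihh, Disp1 and Disp2, and any cited for an unadjusted p) were named after their values were seen. Positions of genes came from GENCODE on NCBIM37. Alternatives covered the pseudocount, the filter, scaling, the eBayes step, a replicate block, the choice of entry and leaving out each sample. The labels do not state that replicate numbers pair samples, so the main fit did not use them as a pairing. Deviations of same-numbered samples had r = -0.15 across genes, which cannot show how the samples were collected.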

Additional observations from a re-analysis of the deposited data

How the results depend on the processing

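With all 4 samples, none of the 5 tested members was called under any of the 12 alternatives. The difference of Sufu then ran from -0.53 to -0.36 (adjusted p 0.378 to 0.999), that of Gli1 from 0.07 to 0.18 and that of Smo from -0.18 to -0.06. Differences near 0 changed sign: Dhh was -0.0052 with median-ratio scaling, and Ptch1 was 0.0141 with quantile normalization. Leaving out each sample in turn, where the lone sample left is assumed to vary like the others, gave -0.21 to 0.24 for Dhh, -0.24 to 0.15 for Ptch1, -0.41 to 0.17 for Smo, -0.90 to -0.11 for Sufu and -0.0082 to 0.17 for Gli1, with 0 to 1 members called (Sufu, without mutant 2, limma adjusted p = 0.0017). It also gave 0.30 to 1.09 for Scube3, 0.04 to 0.75 for Scube2, 0.11 to 0.56 for Gsk3b, -0.31 to 0.39 for Ccnd1, -0.0098 to 0.0759 for Cul3, -0.32 to 0.0027 for Cdon, -0.27 to 0.12 for Gas1, -0.39 to 0.0044 for Nr2f2 and -0.52 to 0.0723 for Sfrp1. Of the other pathway genes, 1 was called with robust eBayes (Tctn1), and 0 to 1 when a sample was left out (Scube3, without mutant 1). Over all genes, the 367 calls became 216 without a filter (19502 genes tested) and 232 with median-ratio scaling, and 184 to 1050 when a sample was left out: 595 without mutant 1, 1050 without mutant 2, 184 without control 1 and 226 without control 2. The difference of Rfx2 kept its direction, at -1.66 to -1.20 when a sample was left out, and missed the threshold without control 1 (-1.20, adjusted p = 0.0628), without a filter (-1.43, adjusted p = 0.0607), with median-ratio scaling (-1.45, adjusted p = 0.073) and with limma-voom on implied fragments (-1.66, adjusted p = 0.0504). The causes were not tested. A replicate block from the numbers in the labels gave 595 calls over all genes and an adjusted p of 0.417 for Sufu, and called no member. Crossing the numbers, an alternative chosen after seeing the data like limma-voom, the marker sums without their most abundant gene and the GC and CCAAT boxes, gave 294 calls over all genes and 0 members. Without the most abundant marker of each list, the share varied 1.19 times for Dhh to Sertoli markers, 1.26 times for Dhh to spermatocyte markers, 1.71 times for Ptch1 to peritubular markers, 1.28 times for Sufu to round spermatid markers and 3.88 times for Sufu to elongating spermatid markers. Gli1, Gli2, Gli3 and Hhip rested on 41.0 to 138 implied fragments in a sample.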
